A study of Mus musculus with 36 samples.

Results

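A panel of 45 cell cycle genes was followed through cardiac differentiation of mouse embryonic stem cells with and without the long noncoding RNA LncCPR. The genes were taken by symbol, 45 of the 37561 gene entries in the tables, and each symbol matched 1 entry. They fall into 14 replication genes (11 for origin licensing and the replication fork, 3 for the supply of nucleotides), 6 G1 genes (the D and E cyclins and Cdk2) and 25 mitosis genes. The rule takes genes by name and role, but the panel and the wider lists were chosen with earlier results of these data known. No test was therefore made of a list as a whole.

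The control cells were AB2.2, a mouse embryonic stem cell line. The knockout cells were AB2.2 cells from which LncCPR had been deleted with Cas9 and a pair of guides flanking the gene. Transfected cells were sorted singly and genotyped before expansion, and the number of knockout lines behind the libraries is not stated. Both lines were sampled undifferentiated with the cytokine LIF in the medium (day 0) and, after LIF was withdrawn, as whole embryoid bodies from hanging drops at days 3, 5, 8, 10 and 12, with 3 libraries for each line and day. The labels do not say whether the 3 libraries of a group came from separate cultures, so p-values measure only the spread between these libraries, which may be technical. No table entry is named LncCPR, and its own level was not analysed here. The values are FPKM, fragments scaled to transcript length and library total, so levels may be set side by side between genes. RNA came from whole cultures, where fewer cells of a type and less RNA per cell cannot be told apart.

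A dividing cell copies its genome in S phase and parts the copies in mitosis. In G1, cyclins D and E and their kinases inactivate the RB protein and release E2F factors, which switch on the genes of replication. The MCM2 to MCM7 proteins form the core of the replicative helicase, which CDC6 and CDT1 load onto origins and the GINS proteins activate. Genes of mitosis peak later, when the MuvB complex with MYBL2 and FOXM1 drives them, and in resting cells the DREAM complex silences them through promoter elements called CHR. Mouse embryonic stem cells have a short G1 phase and high cyclin E, and cells lengthen G1 and leave the cycle as they mature, heart muscle cells among them.

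The promoters set the 2 large classes apart, and 5 chosen as examples are shown. RefSeq promoters (GRCm38.p6, 250 bases before to 50 after a start) were matched for 35 of the 45 genes, with 38 promoters. The CHR was searched as TTTGAA or TTCGAA and the E2F site as TTTGGCGC, TTTCCCGC, TTTCGCGC or TTTGCCGC, each on both strands. A CHR was found in 17 of 22 mitosis promoters (77.3%), 2 of 12 replication promoters (16.7%), 0 of 4 G1 promoters and 19.2% of all 32851 promoters. An E2F site was found in 6 of 12 replication promoters (50%), 1 of 22 mitosis promoters (4.55%), 1 of 4 G1 promoters and 2.26% of all promoters. CCAAT, the box bound by NF-Y, was found on either strand in 19 of 22 mitosis promoters (86.4%), 9 of 12 replication promoters (75.0%) and 37.4% of all. Different elements overlapped in 1 promoter, that of Mcm7, after its start. The 250 bases before the start follow, 5′ to 3′ on the gene's strand, with CHR and E2F letters in capitals.
Mcm5 (chr8:75109259-75109508, plus strand): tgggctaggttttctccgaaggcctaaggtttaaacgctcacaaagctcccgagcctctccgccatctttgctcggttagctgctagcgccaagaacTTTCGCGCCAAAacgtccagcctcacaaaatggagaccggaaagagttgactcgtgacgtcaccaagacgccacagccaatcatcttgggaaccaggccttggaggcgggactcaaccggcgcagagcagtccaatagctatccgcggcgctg
Mcm7 (chr5:138171884-138172133, minus strand): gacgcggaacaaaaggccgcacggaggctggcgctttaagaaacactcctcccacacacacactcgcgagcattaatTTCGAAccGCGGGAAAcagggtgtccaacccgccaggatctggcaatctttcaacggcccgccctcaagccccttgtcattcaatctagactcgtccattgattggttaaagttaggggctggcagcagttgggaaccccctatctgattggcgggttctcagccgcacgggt
Cdk1 (chr10:69352913-69353162, minus strand): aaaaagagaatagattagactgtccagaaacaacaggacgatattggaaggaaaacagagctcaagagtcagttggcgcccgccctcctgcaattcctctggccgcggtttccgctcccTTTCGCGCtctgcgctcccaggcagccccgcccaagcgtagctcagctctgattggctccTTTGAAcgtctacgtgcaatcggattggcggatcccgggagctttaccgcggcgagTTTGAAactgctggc
Cdc20 (chr4:118437344-118437593, minus strand): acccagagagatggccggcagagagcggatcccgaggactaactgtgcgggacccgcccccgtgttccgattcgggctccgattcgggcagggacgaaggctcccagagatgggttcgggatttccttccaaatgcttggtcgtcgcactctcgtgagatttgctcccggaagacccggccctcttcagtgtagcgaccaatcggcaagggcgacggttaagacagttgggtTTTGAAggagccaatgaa
Kif11 (chr19:37376132-37376381, plus strand): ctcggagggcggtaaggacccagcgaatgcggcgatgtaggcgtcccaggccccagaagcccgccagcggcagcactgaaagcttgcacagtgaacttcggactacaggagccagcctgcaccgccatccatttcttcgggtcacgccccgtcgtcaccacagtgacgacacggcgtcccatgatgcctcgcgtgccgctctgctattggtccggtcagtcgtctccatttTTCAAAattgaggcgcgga
Mcm5 holds a pair of E2F sites on opposite strands that share letters and no CHR. Mcm7 has a CHR 2 bases before an E2F site. Cdk1 is the mitosis gene with an E2F site, and it has 2 CHR. Cdc20 and Kif11 each have 1 CHR close to the start and no E2F site. A match describes the letters of these windows only.

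Library sums ran from 294740 to 403675 FPKM. FPKM carries no read count, so absolute depth is unknown. Relative depth, estimated from the lowest values, spanned a 3.25-fold range. Its lowest estimate, for knockout replicate 1 of day 8, rested on 12 of 61 entries compared. Markers of pluripotent cells were high at day 0, where Nanog held 276, 279 and 272 FPKM in the control libraries and 315, 292 and 282 FPKM in the knockout libraries. Esrrb, another such marker, was listed at 0 in all 6 libraries of that day. Markers of heart muscle were high by day 10 in the control. Values of each day were also rescaled to a common median ratio within the day, because the all-gene median of the log2 fold change lay at 0.15, 0.13 and 0.17 at days 3, 5 and 10. Control replicate 1 at day 3 and control replicate 3 at day 10 had the lowest scale factors, 0.719 and 0.823, and the class values of those days are also given without them. A fold change is the difference of mean log2(FPKM + 1), knockout minus control, SE is its standard error, and adjusted p is that of limma's moderated test with Benjamini-Hochberg adjustment over all genes tested in the day, called below 0.05. An exact test of 3 against 3 libraries cannot go below p = 0.1.

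In the control line, replication genes lost more of their level over differentiation than mitosis genes, and the G1 cyclins Ccne1 and Ccnd2 exchanged places. The ratio of mean FPKM at day 10 to day 0 had a median of 0.302 over the 14 replication genes and 0.487 over the 25 mitosis genes, beside 0.874 over 12986 genes. Day 10 was the lowest of the 6 days for 13 of 14 replication genes and 19 of 25 mitosis genes in the control line, and for 0 and 2 in the knockout line. Without control replicate 3 of day 10, an alternative added after seeing the data, the control medians were 0.334 and 0.514, and day 10 was the lowest for 10 of 14 and 11 of 25. In the knockout line the medians of the same ratio were 0.50 and 0.654. The all-gene ratio was computed for the control line only, and the share of all genes lowest at day 10 for neither line. At day 10 the median log2 fold change over all genes, knockout minus control, was 0.17. How much of the gap between the lines is shared by all genes was not tested. The 6 tables may have been normalized separately, so levels were not tested across days.

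Mcm5, a helicase subunit, had the steepest decline of the replication genes in the control line. On days 0, 5, 8, 10 and 12 it stood at 168 ± 5.16, 80.0 ± 8.21, 42.1 ± 5.08, 28.9 ± 5.02 and 34.1 ± 4.81 FPKM (mean ± SD, n = 3). Its level at day 10 was 0.172 of that at day 0 in the control line and 0.344 in the knockout line. Pcna, the sliding clamp of the polymerases, went to 0.191 and 0.302 of its day 0 level. Mcm6 kept more of its level, with ratios of 0.538 and 0.754. Among mitosis genes of the control line, Cdc20, the activator of the anaphase-promoting complex, went to 0.369, and Cdk1, the mitotic kinase, to 0.556. Mki67, whose protein coats mitotic chromosomes and is a common proliferation marker, was the exception among the 25 mitosis genes in the control line. It stood at 75.4 ± 5.24 FPKM at day 0 and 89.5 ± 13.9 FPKM at day 10, a ratio of 1.19.

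The G1 cyclins moved apart from each other. Ccne1, which drives entry into S phase with Cdk2, stood at 145 ± 5.54, 39.4 ± 5.06 and 14.2 ± 2.18 FPKM on days 0, 5 and 10 of the control line. Ccnd2, a D cyclin that answers growth signals, stood at 0.844 ± 0.0786, 7.72 ± 0.537 and 49.7 ± 5.17 FPKM on days 0, 5 and 10 of the control line. Ccnd3 was lowest on day 3, with 41.0 ± 3.11, 7.42 ± 0.806 and 44.8 ± 4.98 FPKM on days 0, 3 and 10. Cdk2 stood at 0.698 of its day 0 level at day 10, and Ccnd1 at 1.1 after 2.04 at day 3.

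**Figure D1:**
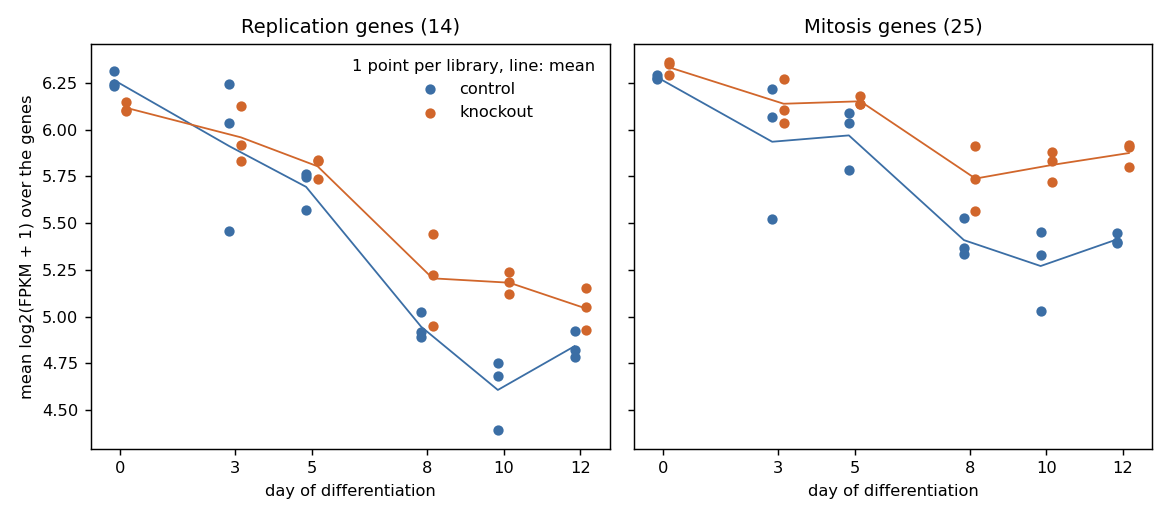
Mean log2(FPKM + 1) over the 14 replication genes (left) and the 25 mitosis genes (right) against the day of differentiation, with 1 point per library (control blue, knockout orange) and a line through the means of 3 libraries. At day 10 the control libraries reach 4.39 to 4.75 for replication and the knockout libraries 5.12 to 5.24.

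The class levels of the lines were compared from day 0 to day 12. The mean log2 level of the replication genes was 6.26 ± 0.0435 (SD, n = 3) in the control line and 6.12 ± 0.0246 in the knockout line at day 0, so the knockout line started lower. Of these genes Mcm2 lies on chromosome 6 and Mcm5, Cdt1 and Gins2 on chromosome 8. All genes of these chromosomes lay -0.25 and -0.26 from the others in median log2 fold change at day 0. The part of those shifts in the lower start was not tested. At day 10 the means were 4.61 ± 0.19 and 5.18 ± 0.0584, with the knockout line higher and no overlap of libraries. Without control replicate 3 the control mean was 4.72 over 2 libraries. At day 12 they were 4.84 ± 0.0704 and 5.04 ± 0.11. The mitosis genes went from 6.28 ± 0.0119 and 6.34 ± 0.0363 at day 0 to 5.41 ± 0.0287 and 5.88 ± 0.0656 at day 12. A mean over members carries no test here, and the genes are taken up day by day.

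**Figure D2:**
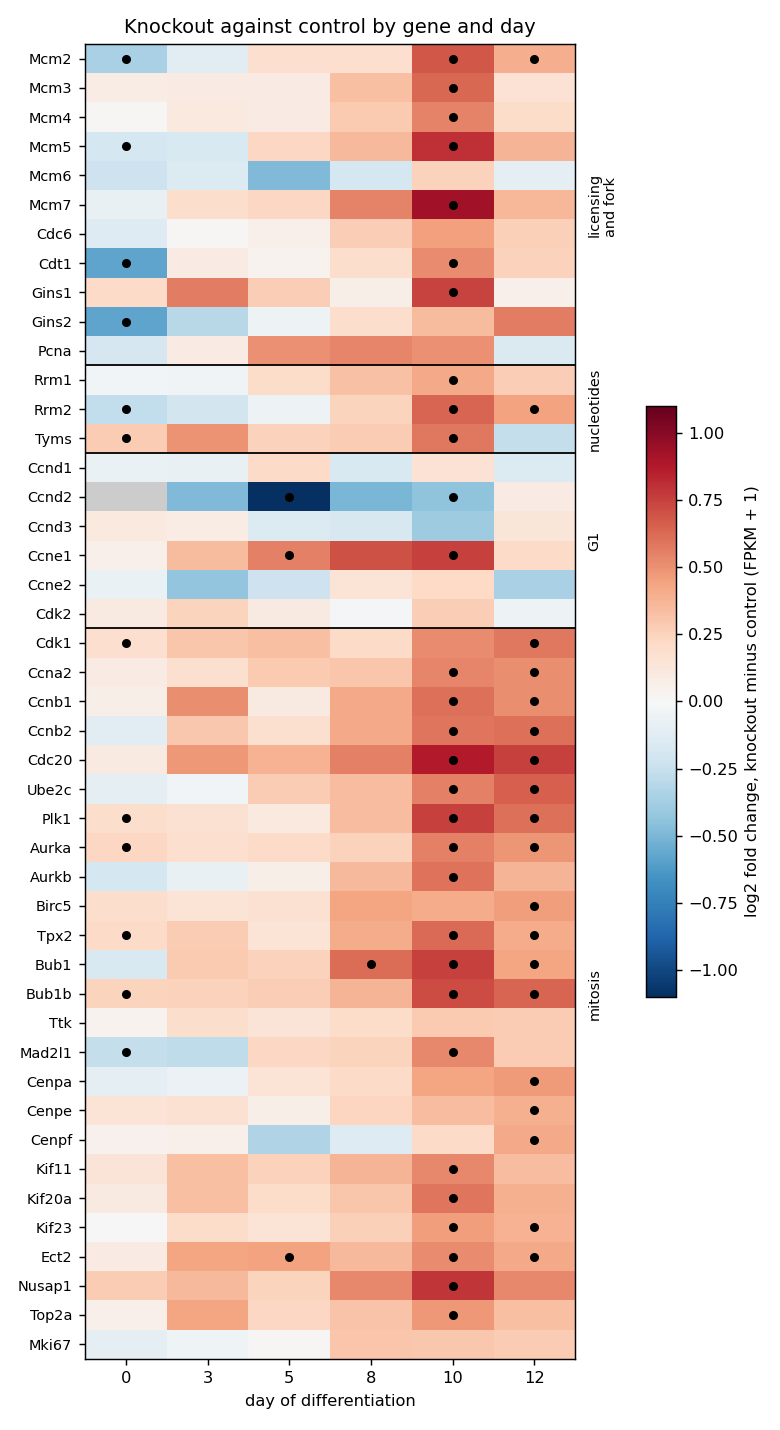
Log2 fold change (knockout minus control, FPKM + 1) of the 45 genes (rows, by class) at the 6 days (columns), with a dot where adjusted p is under 0.05 and grey where the gene lay below the expression filter (Ccnd2 at day 0). Of the 45 genes, 29 are higher and 1 is lower at day 10.

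Day 0 compared undifferentiated cells. Of 44 genes tested, 6 were higher and 6 were lower in the knockout cells, against 6.49% of all 12197 genes tested called higher and 8.03% called lower. Rescaling gave 7 higher and 6 lower, against 7.32% and 7.99%. The replication genes leaned down, with 1 higher and 5 lower of 14 and a median of -0.16, and the mitosis genes leaned up, with 5 higher and 1 lower of 25 and a median of 0.0862. The median over all genes was -0.00911.

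The largest differences were in 2 genes that arm the helicase, both lower in the knockout cells. Gins2 held 28.3, 27.5 and 30.2 FPKM in the control libraries and 17.7, 16.9 and 22.1 FPKM in the knockout libraries (log2 fold change -0.58, SE 0.10, adjusted p = 0.011). Its protein is a GINS subunit. Cdt1 held 47.8, 46.4 and 47.2 FPKM in the control libraries and 35.2, 33.1 and 26.3 FPKM in the knockout libraries (log2 fold change -0.58, SE 0.10, adjusted p = 0.0116). Cdt1 loads the helicase onto origins. The groups did not overlap for either gene, and all 3 knockout libraries were low. Mcm2 was lower by less (log2 fold change -0.36, SE 0.0489, adjusted p = 0.00467), as was Mcm5 (log2 fold change -0.19, SE 0.0515, adjusted p = 0.046). Rrm2, the small subunit of ribonucleotide reductase, was lower (log2 fold change -0.27, SE 0.0706, adjusted p = 0.042), while Tyms, thymidylate synthase, was higher (log2 fold change 0.28, SE 0.0662, adjusted p = 0.0299). Among mitosis genes the checkpoint gene Mad2l1 was lower (log2 fold change -0.26, SE 0.0611, adjusted p = 0.0301). The higher ones were Bub1b (0.25), Aurka (0.23), Tpx2 (0.21), Plk1 (0.20) and Cdk1 (0.18), with adjusted p from 0.0252 to 0.0494.

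Most of the lower genes of day 0 shared a pair of chromosomes. By the GRCm38 annotation, 5 of the tested genes are on chromosomes 6 and 8, namely Mcm2 and Mad2l1 on 6 and Mcm5, Cdt1 and Gins2 on 8, and all 5 were lower and called. Of the 36 on chromosomes other than 1, 6 and 8, 6 were higher and 1 was lower. All genes of chromosome 6 lay -0.25 from the other genes in median log2 fold change at day 0, and those of chromosome 8 -0.26. The same shifts were -0.26 and -0.24 at day 3 and lay between -0.00661 and 0.0161 from day 5 on. With each chromosome's median set to 0, Gins2 stood at -0.29 (adjusted p = 0.137), Cdt1 at -0.28 (0.108), Mcm2 at -0.11 (0.194), Mad2l1 at -0.00703 (0.956) and Mcm5 at 0.11 (0.197). On that scale 4 of the 44 genes were called, all higher, against 728 higher and 534 lower of all 12197 genes tested. How far the lower values of these 5 genes belong to their chromosomes was not tested, and a deletion effect and a difference of the line cannot be told apart here.

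The calls of day 0 also depended on each library: leaving out any of the 6 libraries left 3 to 7 genes called in place of 12, and Cdt1, Gins2 and Mcm2 were called each time. Without the variance trend or without the filter on low values 3 were called. Over all genes, 797 to 1041 were called without 1 library, 1362 without the trend and 774 without the filter, in place of 1770. Marker genes also differed at day 0. Pou5f1 was higher (0.24, adjusted p = 0.0224) among 4 pluripotency markers tested, with sums over the list of 1331 to 1379 FPKM in the control and 1378 to 1499 FPKM in the knockout libraries. Of 4 germ cell markers 3 were higher, and of 4 neural markers 3 were lower. Their part in the day 0 values was not tested.

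**Figure D3:**
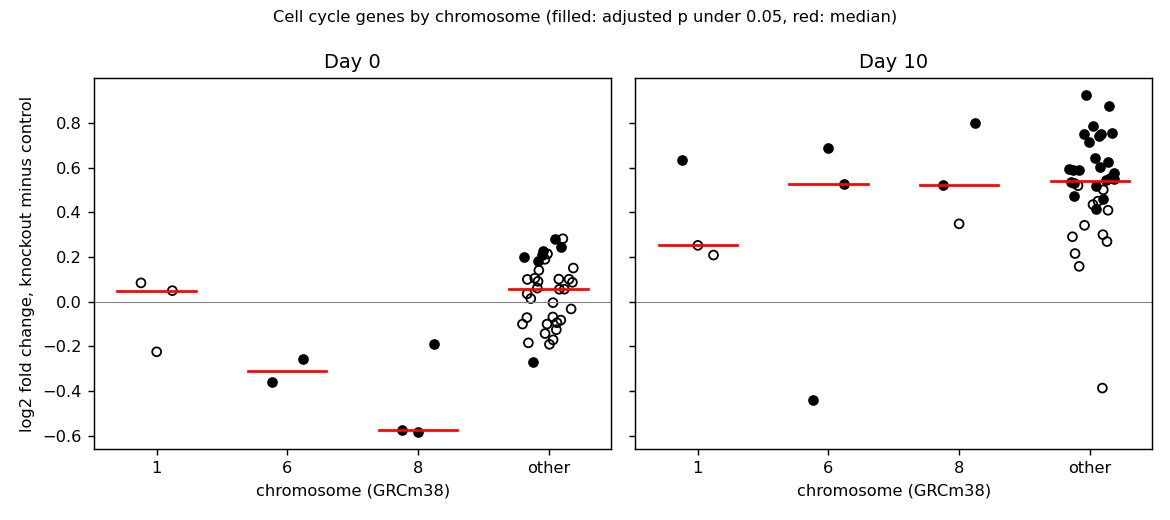
Log2 fold change (knockout minus control) of the tested genes at day 0 (left, 44 genes) and day 10 (right, 45 genes) by chromosome group, 1 point per gene, filled where adjusted p is under 0.05, with the median as a red line. All 5 genes on chromosomes 6 and 8 lie below 0 at day 0, and 5 of the 6 there lie above 0 at day 10.

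At day 3, when embryoid bodies have formed, 0 of 45 genes were called, against 1.09% of all genes tested higher and 0.668% lower. Limma gave an unadjusted p under 0.05 for 2 of the 45, against 1280 of all 11976 genes. After rescaling 2 were called, both lower, against 2.75% of genes lower and 1.77% higher. They were Ccne2, the second E cyclin (log2 fold change -0.59, SE 0.11, adjusted p = 0.0246), and Mad2l1 (log2 fold change -0.44, SE 0.0802, adjusted p = 0.0255). Mad2l1 is on chromosome 6, whose genes lay -0.26 from the others at this day. As deposited, the 6 panel genes on chromosomes 6 and 8 had a median of -0.22, and the 36 off chromosomes 1, 6 and 8 had 0.19. The part of these chromosomes in the day 3 values was not tested. Replication and mitosis medians were 0.0509 and 0.20 as deposited, and -0.11 and 0.0391 after rescaling, beside 0.15 over all genes as deposited. Without control replicate 1 the medians were -0.26 and 0.0287, and without knockout replicate 2 the replication median was -0.0304, so its direction changed without either library. Control replicate 1 was the low library for Mcm7, where the control libraries gave 49.4, 75.3 and 85.6 FPKM and the knockout libraries 74.0, 89.2 and 72.2 FPKM.

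At day 5, the stage of early mesoderm, few of the 45 genes were called, and 2 of the 3 were G1 cyclins. In all 2 were higher and 1 was lower, shares below the 7.07% and 3.32% of all genes, and rescaling gave 3 and 3, against 5.20% and 6.96%. Ccnd2 held 8.21, 7.14 and 7.80 FPKM in the control libraries and 3.07, 2.82 and 3.38 FPKM in the knockout libraries (log2 fold change -1.09, SE 0.12, adjusted p = 0.000203). The knockout libraries were all low, by more than the control libraries varied. Ccne1 held 34.8, 38.4 and 44.8 FPKM in the control libraries and 59.7, 53.8 and 60.3 FPKM in the knockout libraries (log2 fold change 0.55, SE 0.12, adjusted p = 0.0168). All 3 knockout libraries were above the control libraries. The other G1 genes, Ccnd1 (0.21), Ccnd3 (-0.15), Ccne2 (-0.23) and Cdk2 (0.10), were not called in log2 fold change. Ect2, the exchange factor that starts the cleavage furrow, was also higher (log2 fold change 0.44, SE 0.12, adjusted p = 0.0384). After rescaling Mcm6 (log2 fold change -0.63, SE 0.11, adjusted p = 0.011) and the kinetochore gene Cenpf (log2 fold change -0.47, SE 0.0632, adjusted p = 0.00325) were lower and Cdc20 was higher (log2 fold change 0.24, SE 0.0652, adjusted p = 0.0479). Mcm6 and Cenpf are on chromosome 1, whose genes lay -0.27 from the others in median log2 fold change at day 5, and -0.29, -0.30 and -0.28 at days 8, 10 and 12. Ccnd2 was called whichever library was left out, Ccne1 and Ect2 were not. Of 22 cell type markers tested 8 were higher and 4 lower. Of the 5 of primitive streak and early mesoderm, Kdr (-3.39) and Mesp1 (-2.90) were lower and T (0.98) was higher, and Eomes (0.00329) and Mixl1 (0.13) were not called. Of the 5 pluripotency markers, Pou5f1 (1.11) and Nanog (0.91) were higher in log2 fold change and 3 were not called. Their part in the cyclin values was not tested.

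At day 8, 1 of 45 genes was higher and 0 were lower, against 1.28% and 2.00% of all genes. Bub1 held 30.5, 26.7 and 26.7 FPKM in the control libraries and 45.4, 47.2 and 37.9 FPKM in the knockout libraries (log2 fold change 0.62, SE 0.14, adjusted p = 0.0395). Its product is a kinase of the spindle checkpoint, and the groups did not overlap. Rescaling called Mcm7 as well (log2 fold change 0.44, SE 0.0982, adjusted p = 0.0431), for 2 higher and 0 lower, against 2.00% and 3.82% of all genes. The medians were 0.28 for replication and 0.34 for mitosis genes, beside 0.0924 over all genes. Libraries did not overlap for 4 replication and 12 mitosis genes, higher in the knockout, against 14.2% of all genes, and for 0 genes lower, against 8.48%. Knockout libraries varied widely: Mcm7 held 39.3, 44.4 and 30.7 FPKM in them and 27.9, 23.7 and 25.2 FPKM in the control libraries. Without knockout replicate 3 there were 7 called genes, and without any other library 0. Over all genes these counts were 665 and 190 to 268, in place of 417. Of 31 cell type markers tested 5 were higher and 12 lower. Of the heart muscle markers 5 of 6 were lower, with sums of 838 to 1035 FPKM in the control and 145 to 184 FPKM in the knockout libraries. Both blood markers tested, the globins Hba-x (-3.32) and Hbb-bh1 (-3.55), were lower in log2 fold change, as were 3 of 4 endothelial markers. Of 5 pluripotency markers Pou5f1 (1.59) and Nanog (1.04) were higher, and of 4 streak and mesoderm markers T (1.55) and Eomes (0.79) were higher and Kdr (-0.81) was lower. Their part in the day 8 values was not tested.

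At day 10, when control cultures carried heart muscle, most of the panel was higher in the knockout cultures. Of 45 genes 29 were higher and 1 was lower, against 15.0% and 5.12% of all 12938 genes tested. After rescaling 26 were higher and 2 lower, against 9.53% and 11.4%, and 27 genes were called both ways. The replication genes gave 10 higher of 14 with a median of 0.56, the mitosis genes 18 higher of 25 with a median of 0.53, and all genes a median of 0.17. After rescaling the medians were 0.38 and 0.35, beside 0.000709. Libraries did not overlap for 35 genes higher and 2 lower, against 30.9% and 9.47% of all genes. Without control replicate 3, whose values were low, 22 genes were called and the medians were 0.47 and 0.44. Over all genes 1925 were then called in place of 2609.

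Of the 6 subunits of the MCM helicase, 5 were higher in the knockout cultures. Mcm7 held 20.9, 21.7 and 14.8 FPKM in the control libraries and 39.8, 37.9 and 32.9 FPKM in the knockout libraries (log2 fold change 0.92, SE 0.16, adjusted p = 0.00194). It was the largest fold change of the 45 genes at this day. Mcm5 held 33.2, 30.2 and 23.4 FPKM in the control libraries and 47.6, 52.4 and 52.0 FPKM in the knockout libraries (log2 fold change 0.80, SE 0.15, adjusted p = 0.00306). For Mcm2, the control libraries gave 32.7, 32.3 and 25.7 FPKM and the knockout libraries 47.0, 59.0 and 42.5 FPKM (log2 fold change 0.69, SE 0.15, adjusted p = 0.00924). Every knockout library of these 3 genes lay above every control library. Mcm3 held 54.5, 52.0 and 42.1 FPKM in the control libraries and 78.9, 84.2 and 68.4 FPKM in the knockout libraries (log2 fold change 0.63, SE 0.14, adjusted p = 0.00989). For Mcm4, the control libraries gave 36.7, 39.0 and 29.0 FPKM and the knockout libraries 51.6, 53.8 and 47.7 FPKM (log2 fold change 0.54, SE 0.14, adjusted p = 0.0186). Mcm6, the sixth subunit, was not called (log2 fold change 0.25, SE 0.16, adjusted p = 0.29). It lies on chromosome 1, like Mcm3.

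Of the genes that load or activate the helicase, Gins1 and Cdt1 were higher in the knockout cultures. Gins1 held 12.9, 12.7 and 10.5 FPKM in the control libraries and 23.7, 18.8 and 19.9 FPKM in the knockout libraries (log2 fold change 0.74, SE 0.14, adjusted p = 0.00402). For Cdt1, the control libraries gave 14.7, 16.3 and 10.6 FPKM and the knockout libraries 18.2, 22.5 and 19.7 FPKM (log2 fold change 0.52, SE 0.16, adjusted p = 0.0391). Control replicate 3 was the low library for Cdt1, and after rescaling it was not called (adjusted p = 0.0622). Cdc6 (log2 fold change 0.45, SE 0.16, adjusted p = 0.0568), Gins2 (log2 fold change 0.35, SE 0.13, adjusted p = 0.0751) and Pcna (log2 fold change 0.50, SE 0.21, adjusted p = 0.113) missed the threshold. All 3 genes of nucleotide supply were higher. Rrm2 held 18.5, 19.8 and 14.6 FPKM in the control libraries and 29.2, 25.6 and 28.9 FPKM in the knockout libraries (log2 fold change 0.64, SE 0.15, adjusted p = 0.00928). For Tyms, the control libraries gave 24.3, 32.8 and 25.2 FPKM and the knockout libraries 35.5, 41.8 and 46.6 FPKM (log2 fold change 0.58, SE 0.15, adjusted p = 0.0198). Rrm1, the large subunit of ribonucleotide reductase, changed less (log2 fold change 0.41, SE 0.14, adjusted p = 0.0455). After rescaling Tyms was not called (adjusted p = 0.0708).

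Of the G1 genes, Ccne1 and Ccnd2 again differed between the lines in opposite directions. Ccne1 held 14.5, 16.3 and 11.9 FPKM in the control libraries and 25.2, 24.7 and 23.5 FPKM in the knockout libraries (log2 fold change 0.75, SE 0.14, adjusted p = 0.00341). The control libraries were all low. For Ccnd2, the control libraries gave 45.9, 55.6 and 47.7 FPKM and the knockout libraries 36.6, 35.0 and 37.2 FPKM (log2 fold change -0.44, SE 0.13, adjusted p = 0.0319). Its knockout libraries were the low ones, and the groups did not overlap. Ccnd3 passed the threshold, as lower, after rescaling (log2 fold change -0.57, SE 0.0774, adjusted p = 0.00218), and as deposited it gave -0.39 (adjusted p = 0.0567). Ccnd1 (0.16), Ccne2 (0.22) and Cdk2 (0.27) were not called in log2 fold change.

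Among mitosis genes, cyclins and the degradation machinery that ends mitosis were higher in the knockout cultures than in the control of that day. Cdc20 held 20.9, 24.7 and 15.3 FPKM in the control libraries and 37.7, 39.9 and 34.7 FPKM in the knockout libraries (log2 fold change 0.87, SE 0.16, adjusted p = 0.00328). For Ube2c, the control libraries gave 137, 152 and 119 FPKM and the knockout libraries 178, 228 and 193 FPKM (log2 fold change 0.55, SE 0.15, adjusted p = 0.0234). Ube2c is the ubiquitin-conjugating enzyme that works with the anaphase-promoting complex. Ccnb1 held 21.8, 28.7 and 19.9 FPKM in the control libraries and 33.9, 35.2 and 38.1 FPKM in the knockout libraries (log2 fold change 0.60, SE 0.15, adjusted p = 0.0149). For Ccnb2, the control libraries gave 29.5, 31.6 and 26.5 FPKM and the knockout libraries 42.4, 48.0 and 42.8 FPKM (log2 fold change 0.59, SE 0.13, adjusted p = 0.00873). Ccna2 held 57.8, 65.2 and 46.6 FPKM in the control libraries and 91.4, 85.1 and 69.5 FPKM in the knockout libraries (log2 fold change 0.53, SE 0.16, adjusted p = 0.0307). These 3 are the cyclin partners of CDK1 in G2 and mitosis. Cdk1 itself was not called (log2 fold change 0.52, SE 0.17, adjusted p = 0.0505), although it was called at day 12.

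The kinases Plk1, Aurka and Aurkb were higher in the knockout cultures, as was Tpx2. Plk1 held 16.6, 17.9 and 12.5 FPKM in the control libraries and 25.8, 27.8 and 26.9 FPKM in the knockout libraries (log2 fold change 0.75, SE 0.15, adjusted p = 0.00438). PLK1 drives entry into mitosis and spindle assembly. For Aurka, the control libraries gave 30.7, 34.5 and 26.5 FPKM and the knockout libraries 43.7, 47.4 and 44.1 FPKM (log2 fold change 0.55, SE 0.14, adjusted p = 0.0145). Aurkb held 21.8, 22.1 and 18.4 FPKM in the control libraries and 30.9, 35.1 and 29.7 FPKM in the knockout libraries (log2 fold change 0.60, SE 0.14, adjusted p = 0.00979). Aurora A acts at spindle poles and Aurora B at centromeres. Tpx2 held 57.2, 60.5 and 42.2 FPKM in the control libraries and 87.9, 82.0 and 75.5 FPKM in the knockout libraries (log2 fold change 0.62, SE 0.15, adjusted p = 0.0143). TPX2 activates Aurora A on the spindle. Birc5, the survivin subunit of the Aurora B complex, was not called at this day (log2 fold change 0.41, SE 0.14, adjusted p = 0.0527).

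The spindle checkpoint, which holds anaphase until chromosomes are attached, followed. Bub1 held 28.3, 25.5 and 20.2 FPKM in the control libraries and 42.6, 47.0 and 36.5 FPKM in the knockout libraries (log2 fold change 0.75, SE 0.15, adjusted p = 0.00539). For Bub1b, the control libraries gave 46.4, 47.8 and 40.4 FPKM and the knockout libraries 72.4, 74.8 and 75.3 FPKM (log2 fold change 0.72, SE 0.13, adjusted p = 0.00274). Mad2l1 held 23.3, 26.4 and 20.6 FPKM in the control libraries and 36.5, 36.7 and 29.3 FPKM in the knockout libraries (log2 fold change 0.53, SE 0.15, adjusted p = 0.0233). For these 3 genes the knockout libraries were all above the control libraries. Ttk, the checkpoint kinase upstream of them, was not called (log2 fold change 0.29, SE 0.15, adjusted p = 0.176). At the kinetochore, Cenpa (0.43), the histone H3 variant of centromeres, Cenpe (0.34) and Cenpf (0.21) were not called in log2 fold change.

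Spindle and cytokinesis genes complete the class. Nusap1 held 35.2, 37.0 and 27.9 FPKM in the control libraries and 62.4, 60.9 and 50.9 FPKM in the knockout libraries (log2 fold change 0.79, SE 0.15, adjusted p = 0.00333). NUSAP1 binds spindle microtubules. For Kif11, the control libraries gave 38.4, 41.4 and 30.7 FPKM and the knockout libraries 53.6, 54.3 and 52.0 FPKM (log2 fold change 0.53, SE 0.14, adjusted p = 0.019). KIF11 is the motor that pushes spindle poles apart. Kif20a held 24.8, 28.0 and 19.8 FPKM in the control libraries and 37.8, 37.6 and 34.5 FPKM in the knockout libraries (log2 fold change 0.59, SE 0.15, adjusted p = 0.0145). For Ect2, the control libraries gave 26.9, 31.0 and 21.0 FPKM and the knockout libraries 39.3, 39.5 and 34.4 FPKM (log2 fold change 0.52, SE 0.15, adjusted p = 0.0311). Both act at the central spindle and the furrow. Kif23, a motor of the central spindle, gave 0.46 (adjusted p = 0.0446, and 0.0647 after rescaling). Top2a, which untangles DNA, gave 0.47 (adjusted p = 0.043). Mki67 was not called (log2 fold change 0.30, SE 0.14, adjusted p = 0.152).

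Cell type markers differed at day 10 as well, with 7 higher and 15 lower of 32 tested, and 5 and 16 after rescaling. All 5 pluripotency markers (Esrrb, Nanog, Pou5f1, Sox2, Zfp42) were higher in the knockout, with sums of 40.4 to 66.3 FPKM in the control and 119 to 140.3 FPKM in the knockout libraries. The libraries of Zfp42 overlapped, and after rescaling 3 of the 5 were called. All 6 heart muscle markers (Actc1, Myh6, Myh7, Myl7, Nkx2-5, Tnnt2) were lower, with sums of 885 to 909 and 168 to 299 FPKM. Of the endoderm markers 3 of 5 were lower (413 to 690.3 and 185 to 234 FPKM). Of the endothelial markers 3 of 4 were lower (23.1 to 38.6 and 17.1 to 20.4 FPKM). Of the blood markers 2 of 3 were lower, Hba-x (-1.53) and Hbb-y (-1.94) in log2 fold change. Of 4 streak and mesoderm markers T (1.83) and Eomes (1.01) were higher and Kdr (-0.61) was lower. No pluripotency, heart muscle, endoderm or endothelial marker was at 0 in a whole group. Their part in the higher values of the cell cycle genes was not tested.

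Of the 30 genes called at day 10, 16 were called whichever library was left out. They were Mcm2, Mcm3, Mcm5, Mcm7, Gins1, Rrm2, Ccne1, Cdc20, Plk1, Bub1, Bub1b, Ccnb1, Ccnb2, Tpx2, Kif20a and Nusap1. Leaving out knockout replicate 2 left 16 genes called, the fewest of the 6, and without the filter on low values 6 of the 45 were called. Over all genes these settings called 1540 and 775, in place of 2609.

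**Figure D4:**
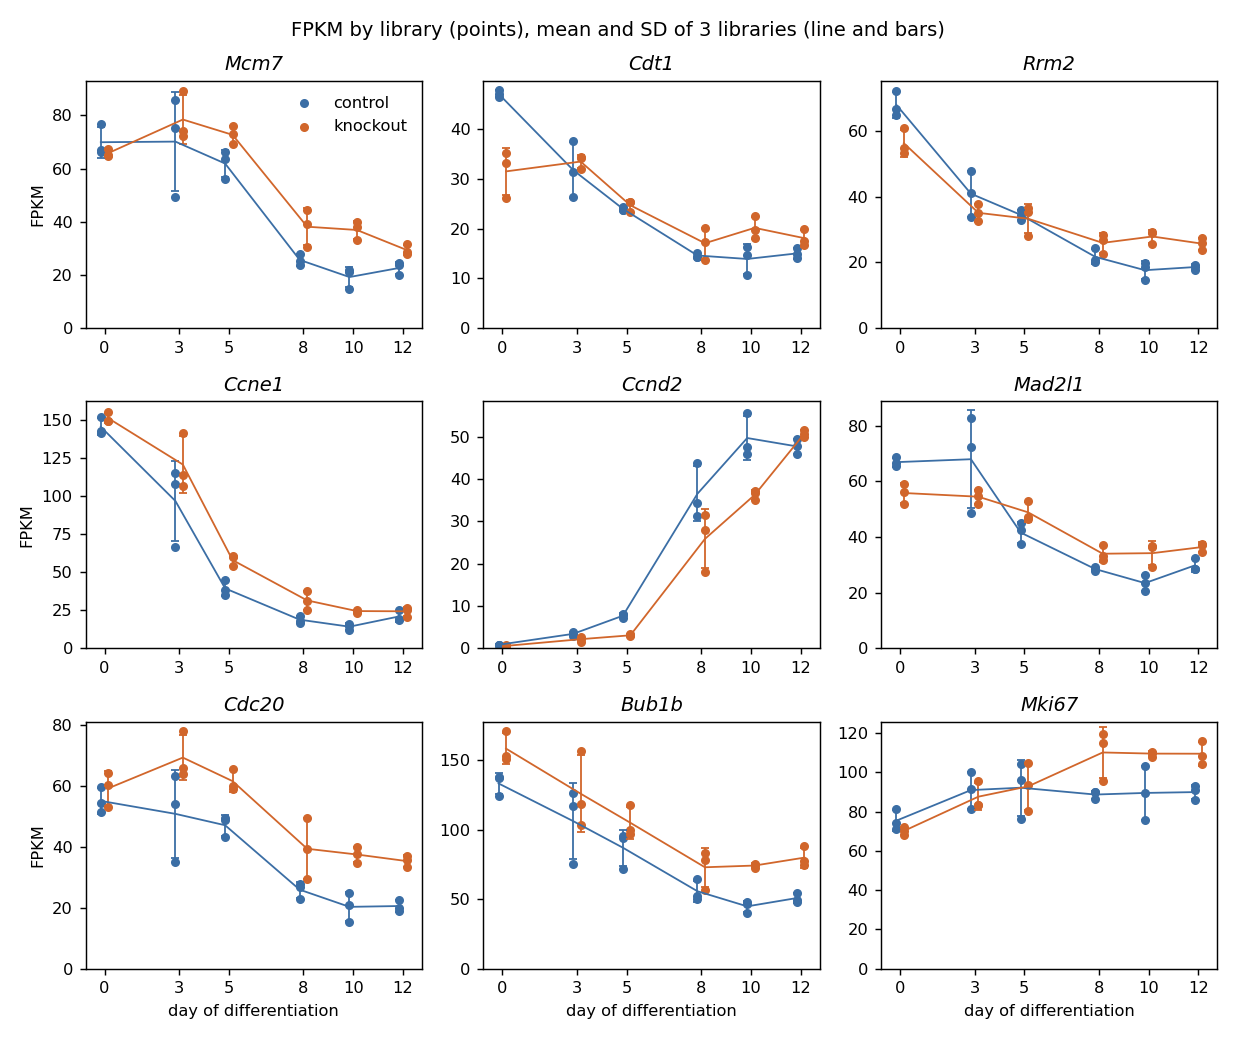
FPKM of 9 genes against the day of differentiation, with 1 point per library (control blue, knockout orange), lines through the means of 3 libraries and bars of 1 SD. Mcm7, Ccne1, Cdc20 and Bub1b lie higher in the knockout libraries at day 10, and Cdt1, Rrm2 and Mad2l1 start lower at day 0 and end higher.

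At day 12 most of the genes called were mitosis genes. Of 45 genes 19 were higher and 0 were lower, against 3.22% and 3.48% of all genes, and rescaling gave 17 higher, against 2.64%, with 15 called both ways, and 0 lower, against 4.92%. The mitosis genes gave 17 higher of 25 on both scales, with a median of 0.44 (0.38 rescaled). For all 25 of them every knockout library lay above every control library, a pattern that 18.2% of all genes showed (11.8% in the other direction, which 0 of the 45 showed). The replication genes gave 2 higher of 14, Mcm2 and Rrm2, with a median of 0.26 beside 0.0537 over all genes, and the difference between the classes was not tested. After rescaling 0 of the 14 were called, with 7 at an unadjusted p under 0.05 in limma, against 3211 of all 13092 genes.

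Cdc20 had the largest fold change, higher in the knockout cultures. Cdc20 held 22.7, 19.9 and 19.1 FPKM in the control libraries and 35.5, 37.0 and 33.3 FPKM in the knockout libraries (log2 fold change 0.75, SE 0.11, adjusted p = 0.00484). For Ube2c, the control libraries gave 166, 149 and 123 FPKM and the knockout libraries 241, 226 and 219 FPKM (log2 fold change 0.65, SE 0.12, adjusted p = 0.0175). Both belong to the machinery that degrades mitotic cyclins. Ccnb2 held 34.7, 31.1 and 33.8 FPKM in the control libraries and 53.8, 53.3 and 46.5 FPKM in the knockout libraries (log2 fold change 0.61, SE 0.10, adjusted p = 0.0109). For Cdk1, the control libraries gave 78.2, 90.4 and 79.2 FPKM and the knockout libraries 125, 128 and 118 FPKM (log2 fold change 0.58, SE 0.0999, adjusted p = 0.012). The B cyclin and its kinase were thus higher together. Ccna2 held 65.6, 53.3 and 54.1 FPKM in the control libraries and 82.7, 86.3 and 77.5 FPKM in the knockout libraries (log2 fold change 0.51, SE 0.11, adjusted p = 0.0293). All 3 knockout libraries stood above the control libraries for each of these 5 genes.

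Among kinases and checkpoint genes, Plk1, Aurka, Bub1 and Bub1b were higher in the knockout cultures. Aurkb (0.37, adjusted p = 0.0526), Ttk (0.28, 0.138) and Mad2l1 (0.28, 0.131) were not called. Plk1 held 16.5, 17.7 and 16.5 FPKM in the control libraries and 25.1, 25.5 and 28.4 FPKM in the knockout libraries (log2 fold change 0.61, SE 0.10, adjusted p = 0.0109). For Bub1b, the control libraries gave 48.3, 54.5 and 49.7 FPKM and the knockout libraries 88.0, 74.4 and 77.3 FPKM (log2 fold change 0.64, SE 0.10, adjusted p = 0.00964). Ccnb1 held 28.7, 26.9 and 23.4 FPKM in the control libraries and 40.4, 34.4 and 39.0 FPKM in the knockout libraries (log2 fold change 0.51, SE 0.11, adjusted p = 0.0326). The other genes called were Aurka (0.49), Tpx2 (0.41), Birc5 (0.46), Bub1 (0.44), Cenpa (0.47), Cenpe (0.39), Cenpf (0.42), Kif23 (0.39) and Ect2 (0.42), all in log2 fold change. Birc5, Kif23, Mcm2 and Rrm2 lost the call on rescaling (adjusted p from 0.0524 to 0.0627). The kinetochore genes Cenpa, Cenpe and Cenpf, with Birc5 and Cdk1, were called at day 12 and not at day 10, and 12 mitosis genes were called at both days.

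Among replication genes, Mcm2 (log2 fold change 0.40, SE 0.10, adjusted p = 0.0495) and Rrm2 (log2 fold change 0.45, SE 0.10, adjusted p = 0.0365) were the ones called. Mcm5 (0.38), Mcm7 (0.37) and Gins2 (0.56) were not called in log2 fold change, nor were Pcna (-0.16), Tyms (-0.26) and Mcm6 (-0.11), whose values lay below 0. Pcna held 19.2, 10.2 and 12.7 FPKM in the control libraries and 13.8, 13.9 and 9.13 FPKM in the knockout libraries. Its libraries overlapped between the lines. Of the 6 G1 genes 0 were called, and Ccnd2 stood at 0.0877. An unadjusted p under 0.05 in limma held for 0 of the 6, against 3151 of all 13089 genes.

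The number of genes called at day 12 depended on each library. Leaving out any of the 6 libraries left 3 to 9 genes called in place of 19, and Bub1b, Cdc20 and Plk1 were called each time. Without the variance trend 7 were called, and without the filter on low values 5. The mitosis median ranged from 0.40 to 0.47 over those refits. Over all genes, 317 to 583 were called with a library left out, in place of 878. Without the trend 693 of all genes were called, and without the filter 218. Of 32 markers tested 0 were higher and 14 lower. The pluripotency genes gave 0 calls of 5 (sums of 54.7 to 116 FPKM in the control and 59.7 to 80.0 FPKM in the knockout libraries, and 0 genes at 0). All 6 heart muscle markers were lower (652 to 738 and 237 to 283 FPKM). The part of heart muscle in the higher values of mitosis genes was not tested.

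A comparison inside each library removes its scale. The mean log2 level of the 14 replication genes minus that of the 25 mitosis genes was -0.0163 ± 0.0322 (SD, n = 3) in the control and -0.22 ± 0.0338 in the knockout line at day 0. At day 10 it was -0.66 ± 0.0311 and -0.63 ± 0.0274, with overlapping libraries. At day 12 it was -0.57 ± 0.0419 and -0.83 ± 0.0575, with libraries of the lines apart. The difference of the lines, knockout minus control, was -0.20, -0.16, -0.0726, -0.0704, 0.0329 and -0.26 at the 6 days in turn. Medians over the genes in place of means gave -0.0341 at day 0, 0.24 at day 10 and -0.40 at day 12. Without the genes on chromosomes 1, 6 and 8, a choice made after seeing the data, the differences were -0.0935 at day 0 and -0.32 at day 12. No test was made of this score.

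**Figure D5:**
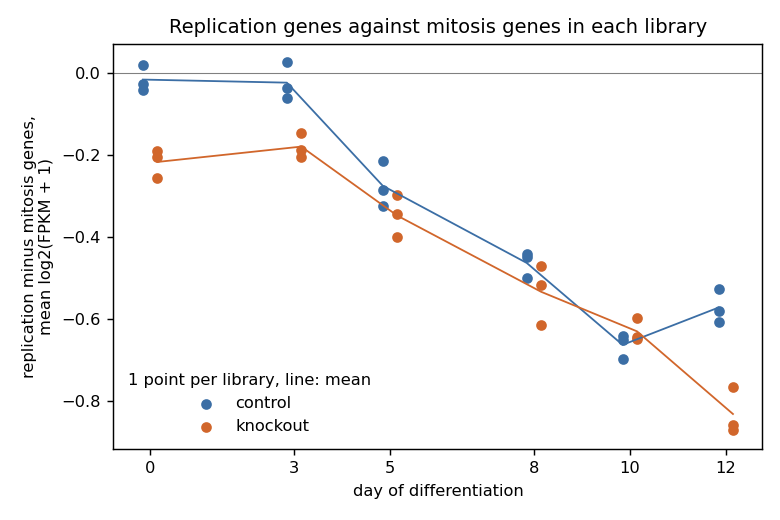
Mean log2(FPKM + 1) of the 14 replication genes minus that of the 25 mitosis genes in each library against the day of differentiation (control blue, knockout orange, 1 point per library, line through the means of 3). The difference falls in both lines, and the lines stand apart at days 0, 3 and 12 and overlap at day 10.

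Whether the knockout effect differed between days was tested for each gene over the 36 libraries with limma's F test. It did for 13 of 45 genes (6 replication, 5 mitosis, 2 G1), against 17.1% of the 13022 genes tested, and for 30 after rescaling, against 32.2%. The strongest was Rrm2, at -0.27 at day 0 and 0.64 at day 10. Cdt1 went from -0.58 to 0.52, Mcm2 from -0.36 to 0.69 and Mad2l1 from -0.26 to 0.53 in log2 fold change between the same days. Mcm2 and Mad2l1 lie on chromosome 6, whose genes lay -0.25 from the others at day 0 and -0.00578 at day 10. Cdt1 lies on chromosome 8, with shifts of -0.26 and 0.0161. The part of these shifts was not tested, and the F test was not run with chromosomes centred. Ccnd2 had its lowest value at day 5. Of the 45 genes 36 were called at 1 or more days, beside 35.4% of the 14459 genes tested at 1 or more days, and 9 were called at none: Mcm6, Cdc6, Pcna, Ccnd1, Ccnd3, Ccne2, Cdk2, Ttk and Mki67.

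A wider list of 101 cell cycle genes outside the panel was tested the same way. As deposited, 5 were higher and 11 lower of 98 tested at day 0, against 6.49% and 8.03% of all genes. At day 3, 0 of 97 were called (6 at an unadjusted p under 0.05 in limma, against 1280 of all 11976 genes). At day 5, 2 were higher and 1 lower of 97, against 7.07% and 3.32%, and at day 8, 0 and 1 of 98, against 1.28% and 2.00%. At day 10, 51 were higher and 1 was lower of 99, against 15.0% and 5.12%, and at day 12, 16 and 1 of 100, against 3.22% and 3.48%. Rescaling gave 40 and 2 at day 10, against 9.53% and 11.4%, and 13 and 2 at day 12, against 2.64% and 4.92%. Among 34 genes of origin recognition, kinases and forks, 21 were higher at day 10 and 3 at day 12. Mcm10 (log2 fold change 0.86, adjusted p = 0.00149) and Cdc7 (log2 fold change 0.83, adjusted p = 0.00571) led them at day 10, a fork protein and the kinase that fires origins, and Rpa3 (log2 fold change 0.77, adjusted p = 0.0313) and Lig1 (log2 fold change 0.51, adjusted p = 0.0457) at day 12. Among 15 kinetochore, checkpoint and passenger genes, 11 were higher at day 10 and 4 at day 12, led by Cdca8 (log2 fold change 0.80, adjusted p = 0.00182 at day 10, and log2 fold change 0.63, adjusted p = 0.0164 at day 12). Among 20 spindle, cytokinesis and condensin genes, 12 and 7 were higher, led by Ncapg at day 10 (log2 fold change 0.82, adjusted p = 0.00235) and Hmmr at day 12 (log2 fold change 0.62, adjusted p = 0.0119).

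Regulators of the cycle were counted by family, as deposited. Over all genes 6.49% were higher and 8.03% lower at day 0, and 1.09% and 0.668% at day 3. The shares were 7.07% and 3.32% at day 5 and 1.28% and 2.00% at day 8. They were 15.0% and 5.12% at day 10 and 3.22% and 3.48% at day 12. Of 14 E2F and RB family genes and their partners, 1 was higher and 2 lower at day 0, 1 was higher at day 5 and 3 were higher at day 10. At days 3, 8 and 12, 0 of 14, 13 and 14 were called, with 2, 2 and 3 at an unadjusted p under 0.05 in limma. Over all genes that p was under 0.05 for 1280 of 11976, 2260 of 12695 and 3151 of 13089 at these days. Mybl2, the MuvB partner that activates mitosis genes, was higher at day 0 (log2 fold change 0.97, adjusted p = 0.000204) and, with overlapping libraries, at day 10 (log2 fold change 0.75, adjusted p = 0.0388). At day 0, Foxm1 (log2 fold change -0.40, adjusted p = 0.0255), on chromosome 6, and E2f4 (log2 fold change -0.40, adjusted p = 0.00762), on chromosome 8, were lower. E2f4 was higher at day 5 (log2 fold change 0.39, adjusted p = 0.0402), and E2f5 at day 10 (log2 fold change 0.46, adjusted p = 0.029). Of 11 kinases, phosphatases and partners such as Skp2 and Cks2, 1, 4 and 1 were higher at days 5, 10 and 12. Cdc25b, a phosphatase that activates CDK1, was higher at day 5 (log2 fold change 0.78, adjusted p = 0.00659), day 10 (log2 fold change 0.74, adjusted p = 0.00807) and day 12 (log2 fold change 0.76, adjusted p = 0.032). Of the CDK inhibitors, 2 of 4 were lower at day 0, 0 of 3 were called at day 3 (1 at an unadjusted p under 0.05 in limma), 1 of 3, 1 of 5 and 1 of 5 were lower at days 5, 8 and 10, and 1 was higher and 1 lower of 6 at day 12. Cdkn1c (p57) was lower at day 5 (log2 fold change -0.84, adjusted p = 0.00088), day 8 (log2 fold change -1.48, adjusted p = 0.000442) and day 10 (log2 fold change -0.54, adjusted p = 0.0157). Cdkn1a (p21) was lower at day 0 (log2 fold change -0.82, adjusted p = 0.0294) and higher at day 12 (log2 fold change 0.75, adjusted p = 0.0308). Cdkn2a was lower at day 0 (log2 fold change -0.69, adjusted p = 0.0361) and day 12 (log2 fold change -0.76, adjusted p = 0.0476).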

How the data were processed

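FPKM of gene entries were made by the authors and deposited as 1 table per day. The submitters' processing notes name TopHat, Cufflinks and the mm9 build, without versions. It is not stated whether the tables were normalized together. The members and lists were chosen with earlier results of these data known. Entries averaging 1 FPKM or more within a day were put on log2(FPKM + 1) and tested within the day, 3 against 3 libraries, with limma 3.58.1 in R 4.3.3 (lmFit, eBayes with trend, two-sided, Benjamini-Hochberg over all genes). An F test over 36 libraries asked whether the effect differed between days. Alternatives were median-ratio rescaling, a pseudocount of 0.1, no filter, no variance trend, chromosome centring, a replicate block and leaving out each library. The fit was tested on simulated data with independent noise for each gene and library. The simulation held no shared library scale and no chromosome shift, so it cannot speak to those. Members with a log2 fold change of 0.5 or more, past the threshold and without overlap of groups, 29 in all, are given by library. Of the wider list, up to 2 genes per class and direction are named by day. Relative depth came from the lowest values. Chromosomes were looked up in GRCm38 by Ensembl identifier, for 32616 of 37561 entries. Of 43 marker genes 41 matched. Same-numbered control and knockout libraries correlated in their deviations at r from -0.13 to 0.27 and were not treated as pairs. Python 3.11.15, pandas 2.3.3, numpy 2.4.6 and matplotlib 3.10.9 were used.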

Additional observations from a re-analysis of the deposited data

Results flagged for a closer look

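The knockout effect differed between days by limma's F test over 36 libraries (Benjamini-Hochberg over 13022 genes) in 13 of the 45 genes. Of the replication genes, these were Rrm2 (adjusted p = 0.000604), Mcm2 (0.00144), Cdt1 (0.0025), Gins2 (0.00702), Mcm5 (0.00717) and Mcm7 (0.0168). The first 5 were lower at day 0, and all but Gins2 were higher at day 10. Of the mitosis genes, these were Mad2l1 (0.00589), Cenpf (0.00929), Bub1 (0.0102), Aurkb (0.0342) and Plk1 (0.0448). Of the G1 genes, these were Ccnd2 (0.00291) and Ccnd3 (0.0444). Of these, Mcm2, Mad2l1 and Ccnd2 lie on chromosome 6, Cdt1, Gins2 and Mcm5 on chromosome 8 and Cenpf on chromosome 1, whose genes were shifted together at some days, and the part of those shifts was not tested.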

How the results depend on the processing

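Without the low-value filter, 774, 2, 424, 136, 775 and 218 genes were called at days 0, 3, 5, 8, 10 and 12, in place of 1770, 210, 1293, 417, 2609 and 878, and 3, 1, 0, 6 and 5 of the 45 at days 0, 5, 8, 10 and 12. Rescaling gave 541, 1513 and 738 genes at days 3, 5 and 8, and 2, 6 and 2 of the 45. It gave a replication median of 0.000132 at day 5, and 30 of the 45 among 4189 genes whose effect differed between days. The replicate block, whose numbers are not known to pair the libraries, gave 824, 342, 590 and 464 genes at days 0, 3, 8 and 12. Of the 45 it gave 3, 4 and 6 at days 0, 8 and 12. Of 18 same-numbered pairs 4 correlated above 0.1, and 7 of 18 control libraries correlated best with their own number. Without a variance trend 3, 0 and 7 of the 45 were called at days 0, 8 and 12. Over all genes 1362, 439 and 693 were then called, in place of 1770, 417 and 878. Centring on chromosomes gave 4, 1 and 2 of the 45 at days 0, 3 and 8, and 1262, 310 and 589 of all genes. It gave a replication median of -0.0886 at day 0, and Mcm5 at 0.11 there in place of -0.19, the only reversal. Without chromosomes 1, 6 and 8, chosen after seeing the data, 7 genes were called at day 0, and the replication minus mitosis difference was -0.0935, -0.0781, -0.00973 and -0.32 at days 0, 3, 5 and 12. Medians in place of means gave -0.0341, -0.0344, -0.00961, 0.11, 0.24 and -0.40 at the 6 days. Leaving out 1 library in turn gave 797 to 1041, 186 to 332, 833 to 996, 190 to 665, 1540 to 2574 and 317 to 583 genes and 3 to 7, 0 to 1, 1 to 4, 0 to 7, 16 to 33 and 3 to 9 of the 45, with replication medians of -0.19 to -0.12, -0.26 to 0.22, 0.0896 to 0.19, 0.18 to 0.37, 0.47 to 0.69 and 0.21 to 0.30 and mitosis medians of 0.0518 to 0.13, 0.0287 to 0.36, 0.10 to 0.25, 0.24 to 0.42, 0.44 to 0.64 and 0.40 to 0.47. The causes were not tested. A pseudocount of 0.1 ended 3 calls of single genes. Depth is known only in relative terms, and 3 libraries a group limit what small changes can be called.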
